A study of Mus musculus with 9 samples.

Results

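RNA from mouse retinas that carry a GFP allele in place of Neurog2 on both chromosomes was compared, gene by gene, with RNA from retinas that carry it on 1 chromosome. The genes described are all those of the deposited mutant against heterozygote table that have a gene symbol and a level of at least 1 RPKM in either group, and these are 12093 of the 12388 symbols of the series. RPKM is a read count scaled by transcript length and library size, and the values of a gene's listed transcripts were summed. The samples were CD-1 embryos at E12.5, with 3 heterozygotes (Neurog2GFP/+) and 3 mutants (Neurog2GFP/GFP) that share the number 466 in their titles. A knock-in group, also of 3 samples, is not used here. Every group carries at least 1 GFP allele at Neurog2, so the heterozygote is the reference and no retina with a pair of intact alleles is compared. Pairs of GFP-positive optic cups were dissociated and extracted whole, so the RNA is that of all their cells.

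Neurog2 is a proneural gene of the basic helix-loop-helix (bHLH) class, and its protein acts in dividing progenitors that are about to become neurons. Such factors bind short DNA sequences called E-boxes together with E proteins and switch on further transcription factors, Notch ligands and the genes of the neuronal cytoskeleton, axon and synapse. At this age the retina is a sheet of progenitors in which the first ganglion cells, horizontal and amacrine cells and cone precursors are born, and the ganglion cells are already sending axons towards the brain.

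The deposited table holds 1 value per group and transcript and no values per sample, so no standard deviation stands beside any value below and the sequencing depth is unknown. The only test over the samples is that of the authors, made by Cuffdiff. A gene is called changed where at least 1 of its transcripts has q of 0.05 or less in the authors' deposited table, where the lowest possible q is 0.0109; a called gene whose RPKM values are given as a rise or fall without a q has that value. For genes with several transcripts the printed level is the sum, and the call is that of a transcript. Whether the samples come from separate litters is not given in the labels, so p-values measure only the spread between these samples.

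The targeted gene did not pass the test. Neurog2 (chromosome 3, 127633135 to 127635631 on mm10) had a heterozygote value of 30.2 RPKM and a mutant value of 36.2 RPKM (the authors' deposited table gives p = 0.081). Of its annotated transcript 64.6% is untranslated, and the value does not separate coding from untranslated reads, so it does not check the label. The groups are called heterozygote and mutant-labelled. The identity of the tissue was read from 4 retinal factors, Rax at 50.6 and 65.8 RPKM, Pax6 at 327 and 339 RPKM, Six6 at 84.8 and 98.5 RPKM and Lhx2 at 84.9 and 110 RPKM, all well above the minimum in both groups. Sex differed between the groups: the heterozygote values of the Y-linked genes Eif2s3y and Kdm5d were 21.9 and 12.8 RPKM, both are listed at 0 for the mutant-labelled group, and Xist was at 184 and 505 RPKM. None of these 3 passed the test, and the part of sex in any result was not tested.

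Most genes differed little. The median log2 ratio of mutant-labelled to heterozygote over the 12044 genes with a finite ratio was 0.03, with the 5th and 95th percentiles at -0.66 and 0.50, and 10888 genes (90.4%) lay within 1.5-fold. Calls were 133 lower and 30 higher, which are 1.1% and 0.248% of all genes (1.35% in either direction). The called falls were also the larger ones, with a median log2 ratio of -0.95 (quartiles -1.13 and -0.76) against 0.69 for the called rises (quartiles 0.59 and 0.998). Without regard to the test, 271 genes (2.25%) were at least 2-fold lower and 143 (1.19%) at least 2-fold higher, and 45.1% and 54.9% of genes had a lower and a higher summed level. Among the 4882 protein-coding genes with at least 20 RPKM, 19 were at least 2-fold lower and 12 of these were called, while 5 were at least 2-fold higher and 1 was called. A transcript with p below 0.05 before adjustment, as the authors' deposited table gives it, is present in 1317 genes.

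**Figure D1:**
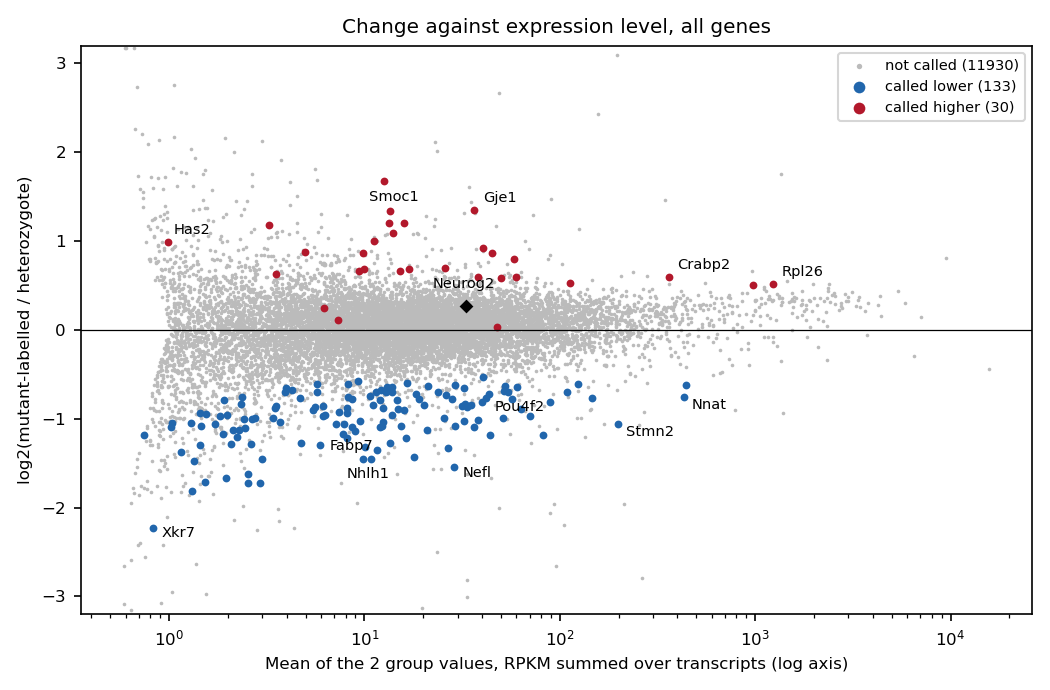
Log2 ratio of mutant-labelled to heterozygote against the mean of both group values, on a log axis, for 12025 genes; blue and red points are the 133 genes called lower and the 30 called higher, and the black diamond is Neurog2. The plot leaves out 19 genes beyond a log2 ratio of 3.2 in either direction and 49 genes listed at 0 in 1 group. The largest called fall is Xkr7 at -2.23 and the largest called rise is Rps19-ps3 at 1.68.

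The called genes were sorted by what their products do, after their values were seen. The lower genes include 20 transcription factors, 20 genes of vesicle release and transmitters, 16 of kinase, G protein and ubiquitin signalling, 15 of the axonal and growth cone cytoskeleton, 11 of axon guidance and adhesion, 9 ion channels and receptors, 8 of RNA regulation and 18 in no class. They also include 7 of the extracellular matrix and secreted factors and 4 of metabolism and transport. How all genes divide over these classes was not counted. Of the higher genes, 5 are of the extracellular matrix and secreted factors, 5 of metabolism and transport, 3 of guidance and adhesion, 2 ribosomal proteins, 1 a transcription factor, and 8 fall in no class. The others are 2 of kinase, G protein and ubiquitin signalling, 2 of cell cycle and histones, 1 ion channel and 1 of the axonal cytoskeleton. Over 61 lists of pathways and cell types, 73 of the lower genes are in at least 1 list and 60 in none, and 14 of the higher genes are in a list and 16 in none. In bulk RNA, fewer cells of a type and less RNA per cell cannot be told apart, and this holds for each group of neuronal genes below.

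**Figure D2:**
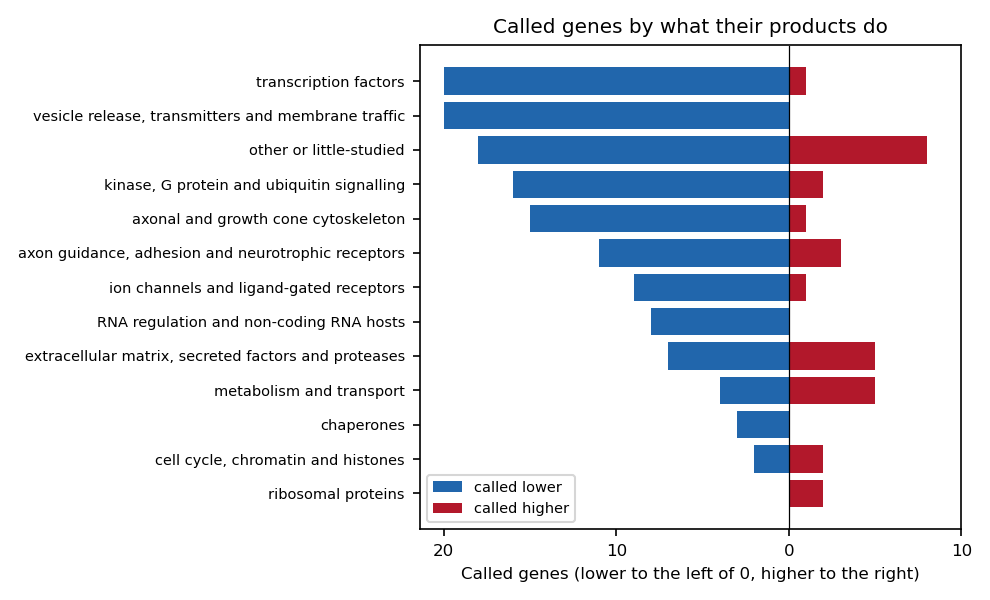
Number of genes called lower (blue, to the left) and higher (red, to the right) in the mutant-labelled group, by what their products do. The largest classes, transcription factors and vesicle release, hold 20 lower genes each, and 1 and 0 higher genes.

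Among transcription factors of neuronal differentiation, falls outnumbered rises. Of 17 measured bHLH and zinc finger differentiation factors, 6 were called lower and 1 higher, against 1.1% and 0.248% of all genes, and their median log2 ratio was -0.64. Nhlh1, a bHLH factor of newly born neurons (chromosome 1, 172052292 to 172057573), fell from 14.5 RPKM to 5.26 RPKM in the mutant-labelled group, which is -1.46 as a log2 ratio. Its close relative Nhlh2 (chromosome 3, 102010076 to 102015492) fell from 16.7 to 6.56 RPKM (-1.35). Scrt2, a zinc finger repressor of newly born neurons, fell from 11.4 to 4.89 RPKM (-1.22). Neurod4, a bHLH factor of differentiating neurons, fell from 18.3 to 9.43 RPKM. Olig2 and Insm2 were called with higher q, at 4.56 and 2.52 RPKM (q = 0.0424) and at 16.8 and 10.8 RPKM (q = 0.0286), as the authors' deposited table gives them. Myt1 and St18, zinc finger factors of the same family, went from 30.9 to 16.9 RPKM and from 6.79 to 2.79 RPKM and did not pass the test.

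Calls among factors of single retinal cell types were also falls. Of 20 ganglion cell factors, 5 fell and none rose, against 1.1% and 0.248% of all genes. Their median was -0.72, and 17 had a lower summed level. Irx2, an Iroquois homeobox factor (chromosome 13, 72628820 to 72634198), fell from 38.5 to 15.3 RPKM with both of its transcripts called, and Pou4f1 (chromosome 14, 104461676 to 104467999) from 14.4 to 5.78 RPKM. Ebf3, a factor of the Ebf family, fell from 51.3 to 25.3 RPKM (the authors' deposited table gives q = 0.0204). Pou4f2, a ganglion cell factor related to Pou4f1, fell from 53.1 to 31.1 RPKM (-0.77). Atoh7, which makes progenitors competent to become ganglion cells, was at 195 and 148 RPKM, and Isl1 was at 69.1 and 43.3 RPKM (the authors' deposited table gives q = 0.084), and neither was called. Ebf1 was at 32.2 and 13.1 RPKM, a larger ratio than that of Ebf3, without passing the test. Of 13 factors of photoreceptor, horizontal and amacrine precursors, 4 fell and none rose, with a median of -0.66. Prdm13, an amacrine cell factor, fell from 2.33 to 0.712 RPKM and Onecut3, of horizontal and ganglion cells, from 3.81 to 1.24 RPKM, the largest falls among the called transcription factors at -1.71 and -1.62. Not every early neuronal factor moved: Foxn4, of amacrine and horizontal progenitors, was at 58.5 and 62.9 RPKM, and Prox1, of horizontal cells, at 18.03 and 18.2 RPKM. Outside these lists Prdm8, of the same family as Prdm13, fell from 4.96 to 2.41 RPKM and Lbh from 17.2 to 10.6 RPKM, as did the zinc finger factor Sp8, from 4.84 to 2.99 RPKM (the authors' deposited table gives q = 0.0424).

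As 20 of the lower genes are transcription factors, the sequence before their start sites was read. RefSeq promoters of GRCm38.p6, taken from 250 bases before to 50 bases after the start, matched 96 of the 133 lower genes, 19 of the 30 higher genes and 9097 of all 12093 genes by symbol. The E-box CAGATG, or CATCTG on the other strand, was in 24 promoter sets of the lower genes (25%), in 2 of the higher genes (10.5%) and in 13.2% of all genes, against 17.2% of all 32851 promoters of that length in the table. A gene counts if any of its promoters matches, whereas the last share counts single promoters. The lower, higher and all genes had on average 1.33, 1.05 and 1.28 promoters each. The palindromic E-box CAGCTG was in 28.1% of the lower genes, 15.8% of the higher genes and 17.5% of all genes (16.3% of all promoters). CACCTG, or CAGGTG, was in 31.3%, 15.8% and 20.1% (20.2% of all promoters), and CATATG in 2.08%, 5.26% and 1.96% (3.91% of all promoters). The 4 motifs differ in their central letters, so no 2 of them can match the same 6 bases, the median GC content was 61.6%, 59.3% and 61.3% in the lower, higher and all genes, and a match is a description of the letters and not of binding. The 250 bases before the start are shown for 3 lower transcription factors whose E-box CAGATG lies in that window, chosen after their values were seen, with the E-box in capitals; it begins at position -203 from the start in Nhlh1, -127 in Nhlh2 and -74 in Irx2.
Nhlh1, chr1:172057597-172057846, minus strand: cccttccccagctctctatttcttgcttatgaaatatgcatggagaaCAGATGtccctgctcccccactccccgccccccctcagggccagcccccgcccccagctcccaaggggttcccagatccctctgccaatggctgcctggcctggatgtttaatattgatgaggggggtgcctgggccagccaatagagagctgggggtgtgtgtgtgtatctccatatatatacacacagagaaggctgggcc
Nhlh2, chr3:102009895-102010144, plus strand: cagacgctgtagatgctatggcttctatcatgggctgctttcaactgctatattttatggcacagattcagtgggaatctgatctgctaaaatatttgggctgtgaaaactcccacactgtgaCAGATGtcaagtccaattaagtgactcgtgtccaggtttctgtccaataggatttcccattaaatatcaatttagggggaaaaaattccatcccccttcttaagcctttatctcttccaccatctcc
Irx2, chr13:72628570-72628819, plus strand: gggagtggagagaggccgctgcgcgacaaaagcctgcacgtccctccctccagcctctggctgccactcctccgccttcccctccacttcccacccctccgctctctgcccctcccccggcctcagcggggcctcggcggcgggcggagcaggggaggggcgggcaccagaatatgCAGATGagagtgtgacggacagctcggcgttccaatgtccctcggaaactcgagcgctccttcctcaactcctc

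Calls in the list of neurofilament and growth cone genes were falls. In the wider class of axonal and growth cone cytoskeleton, 15 genes were called lower and 1 higher, Twf1, described below. Of 19 neurofilament and growth cone genes, 6 fell, none rose and 13 were not called, against 1.1% and 0.248% of all genes. Their median was -0.58, and 18 had a lower summed level. Nefl and Nefm, the light and medium neurofilament subunits, which share 1 locus on chromosome 14 (68082590 to 68124846), fell from 42.8 to 14.7 RPKM and, for Nefm, from 114 to 50.04 RPKM. Ina, a further neuronal intermediate filament, fell from 49.5 to 23.1 RPKM. Stmn2, a tubulin-binding protein of growing axons, fell from 268 to 129 RPKM and its relative Stmn3 from 40.7 to 22.4 RPKM, whereas Stmn1, which dividing cells also use, was at 1287 and 1167 RPKM and was not called. Gap43, a growth cone membrane protein, fell from 92.7 to 47.3 RPKM. The called falls in this list lay between -0.86 and -1.54.

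Among 24 tubulins and microtubule-associated proteins, 4 fell and none rose, against 1.1% and 0.248% of all genes. Their median was -0.21. Tubb2a and Tubb2b, neighbouring and closely similar beta-tubulin genes whose reads may be shared, fell by near-equal ratios, Tubb2a from 19.4 to 10.4 RPKM and Tubb2b from 82.8 to 44.6 RPKM. Mapt, which encodes tau, fell from 6.69 to 2.76 RPKM and Map2 from 47.7 to 33.1 RPKM. Among tubulins that were not called, Tubb5 was at 1039.85 and 1079 RPKM and Tuba1b at 566 and 598 RPKM. Dcx, the microtubule-binding protein of migrating neurons, was at 47.2 and 18.4 RPKM, spread over 6 transcripts, and was not called. Kif5a, a neuronal kinesin heavy chain, fell from 10.7 to 5.60 RPKM and was the only call among 30 kinesins, whose median was 0.00.

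Calls among genes of transmitter release were falls. Of 40 measured genes of vesicle release, 10 fell, none rose and 30 were not called, against 1.1% and 0.248% of all genes. Their median was -0.57, and 32 had a lower summed level. Snap25, a protein of membrane fusion, fell from 43.3 to 21.3 RPKM. Among vesicle proteins, Syp, synaptophysin, fell from 16.7 to 8.15 RPKM, Syt13 from 10.7 to 4.75 RPKM and Sncg, gamma-synuclein, from 60.7 to 26.8 RPKM. The calcium sensor Syt1, a relative of Syt13, was at 15.8 and 14.4 RPKM and was not called. The transporters that fill vesicles, Slc17a6 for glutamate and Slc18a2 for monoamines, fell, Slc17a6 from 1.98 to 0.713 RPKM and Slc18a2 from 7.87 to 4.36 RPKM. Gad2, an enzyme of GABA synthesis, fell from 16.0 to 9.91 RPKM. Th, the rate-limiting enzyme of dopamine synthesis, was at 20.2 and 8.09 RPKM and was not called.

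Of 16 neuropeptides and granule proteins, 2 fell and none rose, against 1.1% and 0.248% of all genes, and the median was -0.53. Chgb, a granule protein, fell from 8.12 to 4.15 RPKM, and Adcyap1, the peptide PACAP, from 3.66 to 1.84 RPKM (the authors' deposited table gives q = 0.0494). Gal, the peptide galanin, was by contrast at 90.8 and 81.8 RPKM and was not called.

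The nicotinic acetylcholine receptor subunits had the lowest median of the lists that hold at least 5 genes and are not markers of other tissues or Y-linked, at -0.81. Of these 5 subunits 4 were called lower, against 1.1% of all genes. Chrna3 fell from 113 to 64.4 RPKM, Chrnb4 from 39.4 to 25.1 RPKM and Chrna5 from 3.10 to 1.34 RPKM; these 3 genes lie side by side on chromosome 9, 3.56 and 1.597 kb apart, and Chrna4, on another chromosome, fell from 67.5 to 41.4 RPKM. The remaining subunit, Chrnb2, was at 4.39 and 2.20 RPKM. Of 15 receptors for glutamate, GABA and glycine, Grin2c alone was called, from 1.90 to 0.991 RPKM (the authors' deposited table gives q = 0.0367). Of 41 voltage-gated and related channels, 2 were called lower and 1 higher, with a median of -0.17. Scn3a, a sodium channel, fell from 2.99 to 1.67 RPKM, and Kcnk1, a potassium leak channel, rose from 8.12 to 18.7 RPKM. Asic1, an acid-sensing channel outside that list, fell from 1.97 to 0.932 RPKM.

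Guidance and adhesion genes were called in both directions. Of 47 guidance ligands and receptors, 2 were called lower and 1 higher, against 1.1% and 0.248% of all genes. Their median was -0.01 and becomes 0.02 over those with at least 5 RPKM. Nrp1, a semaphorin and VEGF co-receptor, fell from 4.39 to 1.597 RPKM, and Dcc, the netrin receptor, from 53.8 to 32.6 RPKM. Plxna2, a semaphorin receptor, rose from 2.77 to 4.29 RPKM. Slit2, a ligand that steers retinal axons, was at 145.4 and 154 RPKM. Among 47 neuronal adhesion molecules, 4 were called lower and 1 higher, the median was -0.21, and 32 had a lower summed level. L1cam and Nfasc, members of 1 family of axonal adhesion proteins, fell, L1cam from 15.8 to 5.76 RPKM and Nfasc from 19.1 to 7.94 RPKM, and Cntn2, their axonal partner, from 22.9 to 9.87 RPKM. Flrt2, an adhesion protein that binds the guidance receptor Unc5, rose from 28.1 to 53.2 RPKM, but its most abundant transcript, at 13.6 and 28.7 RPKM, was not called (the authors' deposited table gives q = 0.0933). Receptors for growth factors of neurons fell too, Ngfr from 9.62 to 4.62 RPKM and Gfra2 from 3.54 to 1.77 RPKM. None of 48 cadherins and protocadherins was called, and their median was -0.12, or 0.11 over those with at least 5 RPKM.

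**Figure D3:**
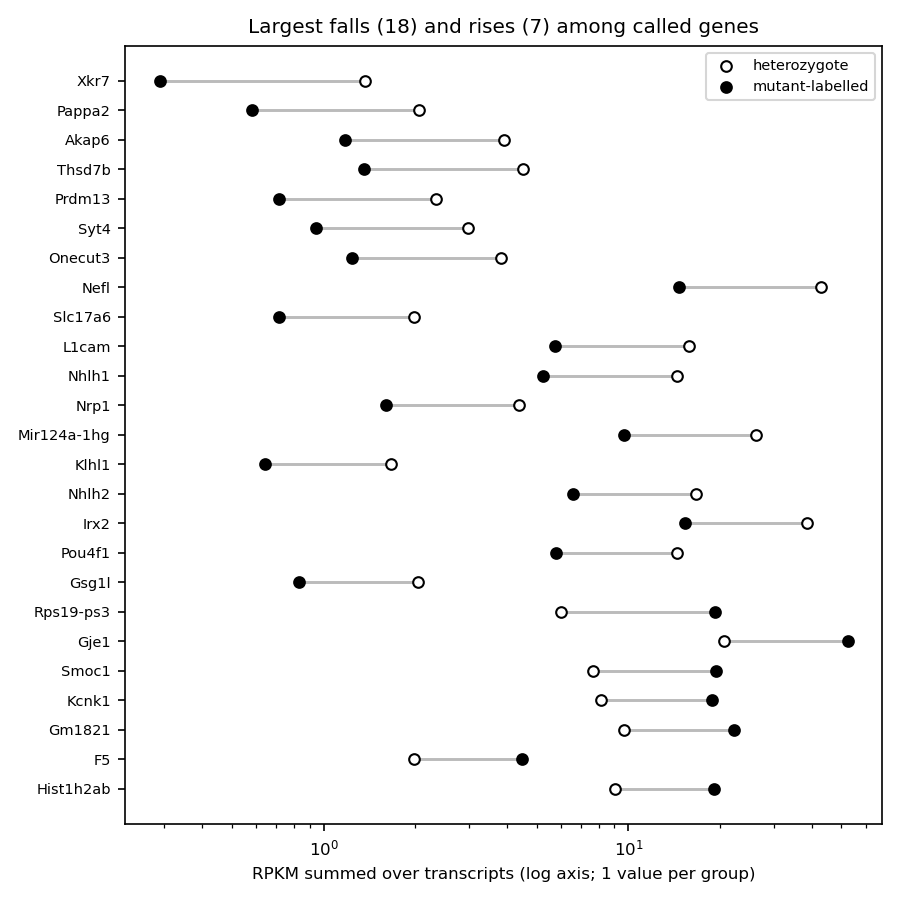
RPKM summed over transcripts in the heterozygote (open circles) and the mutant-labelled group (filled circles), 1 value per group and on a log axis, for the 18 largest falls and 7 largest rises among called genes. Falls run from genes near 1 RPKM, such as Xkr7 at 1.36 and 0.290 RPKM, to Nefl at 42.8 and 14.7 RPKM; 2 of the rises, Rps19-ps3 and Gm1821, are transcribed pseudogenes.

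RNA regulators of neurons had a low median, -0.75 over 18 genes. Calls were 3 falls and no rise, against 1.1% and 0.248% of all genes. Elavl3, a neuronal RNA-binding protein of the Hu family, fell from 34.0 to 17.1 RPKM. Nova2, a neuronal splicing factor, fell from 12.7 to 6.25 RPKM, and Srrm4, which drives the splicing of neuronal microexons, from 43.4 to 23.7 RPKM. The most abundant Srrm4 transcript, at 23.2 and 13.5 RPKM, was not called (the authors' deposited table gives q = 0.194). The Elavl3 relatives Elavl2 and Elavl4 were at 22.2 and 7.21 RPKM and at 162 and 81.7 RPKM, over 5 and 7 listed transcripts of which none passed the test. Their log2 ratios were -1.62 and -0.987, against -0.995 for Elavl3. Mir124a-1hg, a host transcript of the neuronal microRNA miR-124, fell from 26.1 to 9.70 RPKM (-1.43). Celf2, Ptbp2 and Khdrbs3 did not share the direction, at 121 and 134.7 RPKM, 123.3 and 127 RPKM, and 35.4 and 43.3 RPKM. The 73 general splicing and hnRNP proteins had no call and a median of -0.01 (0.01 by the most abundant transcript). Arglu1, a splicing-linked nuclear protein, fell from 150 to 98.7 RPKM (the authors' deposited table gives q = 0.0204).

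Every call in the list of neuronal signalling proteins was a fall. Of 31 neuronal kinases, phosphatases and G proteins, 5 fell, none rose and 26 were not called, against 1.1% and 0.248% of all genes. Their median was -0.48. The G protein subunits Gnao1, Gng3 and Gng2 fell from 39.4 to 18.7 RPKM, from 68.3 to 34.4 RPKM and from 44.9 to 24.96 RPKM. Akap6, which anchors protein kinase A, fell from 3.90 to 1.18 RPKM, and Camk2n1, an inhibitor of calmodulin-dependent kinase, from 23.97 to 14.03 RPKM. Shc2, an adaptor of neurotrophin receptors, fell from 25.8 to 16.7 RPKM (the authors' deposited table gives q = 0.0286).

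Several of the largest falls were in genes outside these functions. Xkr7, of the XK-related membrane proteins, had the lowest ratio of all called genes, at 1.36 and 0.290 RPKM (-2.23). Ratios spread more widely at low level. Genes with a mean below 1 RPKM, Xkr7 among them, had 5th and 95th percentiles of -2.50 and 1.95. At 1 to 2 RPKM these were -1.18 and 0.85, and at 20 to 50 RPKM -0.38 and 0.39. Pappa2, a protease that cuts insulin-like growth factor binding proteins, fell from 2.05 to 0.582 RPKM, and Igfbpl1, related to those binding proteins, from 16.6 to 7.88 RPKM. Thsd7b, with thrombospondin domains, fell from 4.50 to 1.36 RPKM. The most abundant of the lower genes were Nnat, an imprinted membrane protein gene, at 541 and 321 RPKM, Tmsb10, an actin-binding thymosin, at 537 and 351 RPKM, and Rtn1, a reticulon, at 185 and 109 RPKM. Of 21 imprinted genes Nnat and Meg3 (9.72 to 5.12 RPKM) were the only calls. The Meg3 call rests on a minor transcript, and its most abundant one, at 6.64 and 3.96 RPKM, was not called (the authors' deposited table gives q = 0.993). H19 and Igf2 were at 139.6 and 192 RPKM and at 185 and 290 RPKM. Of 45 chaperonins and heat shock proteins, 3 were called lower. Hspa1a, which has a near-identical neighbour that can share its reads, fell from 7.14 to 3.81 RPKM, Dnajb1 from 71.6 to 41.7 RPKM and Hspa12a from 16.1 to 8.73 RPKM.

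Of the 30 genes called higher, 5 were sorted to the matrix and secreted factors and 5 to metabolism and transport. The same classes hold 7 and 4 of the genes that fell. Of 50 genes of collagens, laminins and other matrix, 2 were called higher and 2 lower, against 0.248% and 1.1% of all genes. Their median was 0.21. Smoc1, a secreted calcium-binding protein that counters BMP signals, rose from 7.68 to 19.3 RPKM, and Col9a1, a collagen of the eye and cartilage, from 32.0 to 58.2 RPKM. Has2, which makes hyaluronan, rose from 0.660 to 1.31 RPKM (the authors' deposited table gives q = 0.0424). The matrix genes that fell were Ncan and Spock2, proteoglycans of nervous tissue, from 7.12 to 4.37 RPKM and from 14.1 to 8.72 RPKM, and Tmem2, a hyaluronidase of the cell surface outside that list, fell from 32.6 to 19.5 RPKM. Among genes sorted to metabolism and transport, Mlycd rose from 3.51 to 6.46 RPKM and Hadh from 30.3 to 45.6 RPKM (the authors' deposited table gives q = 0.0424). Hadh lies within 10 Mb of Neurog2, a window described below. Gje1, a connexin-like gene of the lens (chromosome 10, 14705591 to 14770850), rose from 20.7 to 52.4 RPKM. F5, coagulation factor V, rose from 1.98 to 4.49 RPKM, and Tmem60, a membrane protein, from 42.5 to 73.7 RPKM.

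Progenitor genes sat slightly above the rest. Of 26 retinal progenitor genes 23 had a higher summed level and the median was 0.29. The calls were 1 in each direction, both in genes also known from glia, against 1.1% lower and 0.248% higher of all genes. Slc1a3, a glutamate transporter of radial and Müller glia, rose from 6.93 to 12.6 RPKM, and Fabp7, a fatty acid binding protein of radial glia, fell from 12.3 to 5.58 RPKM. Ccnd1, the D cyclin of retinal progenitors, was at 388 and 487 RPKM, Sox2 at 33.9 and 42.4 RPKM and Zic1 at 62.6 and 87.2 RPKM, none of them called. Of 51 DNA replication genes 42 were higher by summed level and the median was 0.19, and 1 was called. That gene is Gmnn, geminin, which keeps DNA from being copied again within a cycle, and it rose from 47.4 to 71.7 RPKM (the authors' deposited table gives q = 0.0286). The 68 genes of mitosis and the spindle had no call and a median of 0.13, with Cdk1 at 243 and 249 RPKM and Top2a at 225 and 215 RPKM. Of 18 genes of cell cycle exit Btg2, an antiproliferative gene, fell from 63.4 to 40.9 RPKM, and Cdkn1c, a kinase inhibitor, was at 37.2 and 51.6 RPKM without passing the test. Of 50 replication-dependent histone genes, whose copies share sequence, Hist1h2ab alone was called, from 9.01 to 19.1 RPKM (the authors' deposited table gives q = 0.0494).

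**Figure D4:**
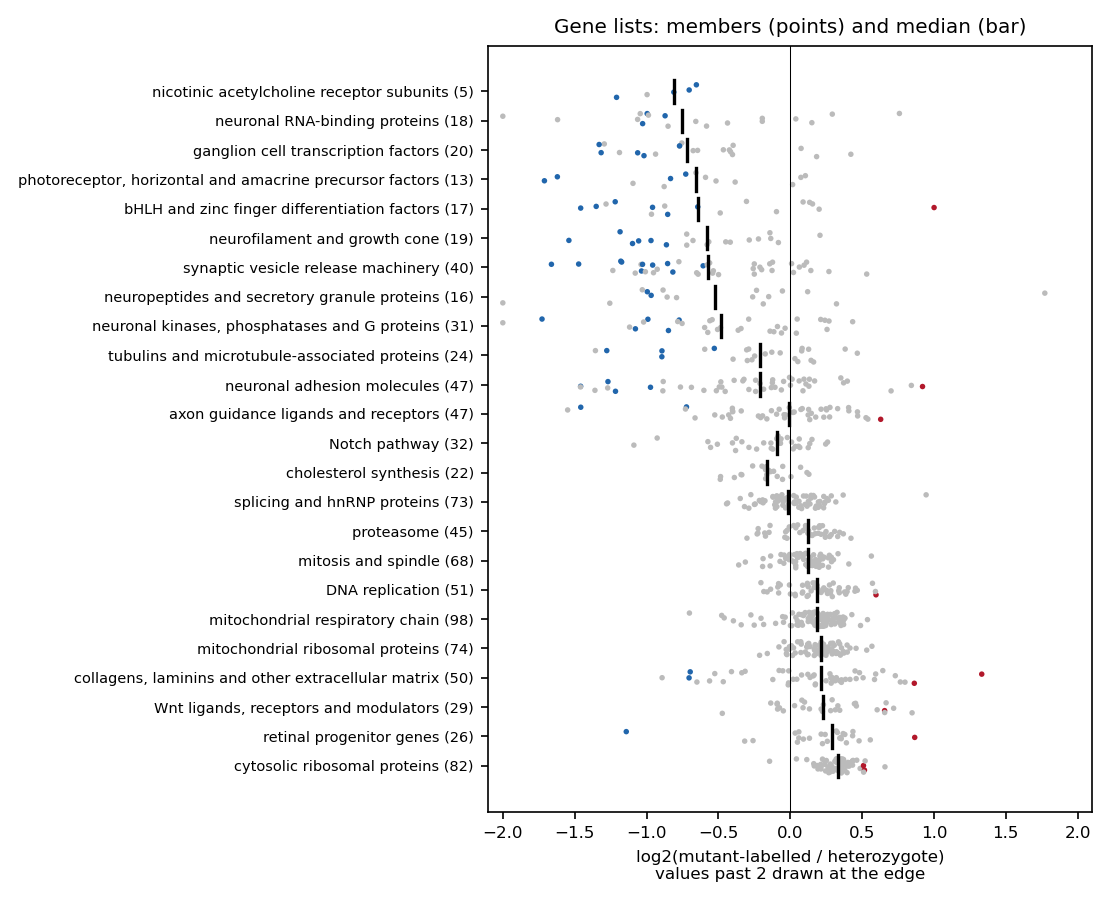
Log2 ratio of mutant-labelled to heterozygote for the members of 24 gene lists, with the number plotted in brackets; blue and red points are genes called lower and higher, grey points are not called, and the black bar is the list's median. The 9 upper lists, all of neuronal parts, have medians from -0.81 to -0.48. The 7 lists from DNA replication down have medians from 0.19 to 0.33 and at most 2 calls in either direction.

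Ribosomal protein genes were nearly all slightly higher by summed level. Of all genes, 0.248% were called higher. Of 82 cytosolic ribosomal protein genes 81 had a higher summed level and the median was 0.33, with 2 called, Rpl26 from 1013 to 1449.5 RPKM (q = 0.0286) and Rplp0 from 802 to 1142 RPKM (q = 0.0367), both in the authors' deposited table. The exception was Rps27l, a p53-linked relative, at 167 and 151 RPKM. Many of these genes have processed pseudogenes that can take their reads, and Rps19-ps3, 1 such pseudogene, rose from 6.02 to 19.2 RPKM. The 74 mitochondrial ribosomal proteins and 98 genes of the respiratory chain had no calls and medians of 0.21 and 0.19, with 65 and 85 genes higher by summed level. Level moves with this pattern: the 982 genes with a mean of at least 100 RPKM had a median of 0.12. Measured from that value the medians were 0.21 for the cytosolic ribosomal genes, 0.17 for progenitor genes, 0.09 for mitochondrial ribosomal genes, 0.07 for replication and the respiratory chain, 0.01 for mitosis and 0.00 for the 45 proteasome genes. The part of expression level in these small ratios was not tested.

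**Figure D5:**
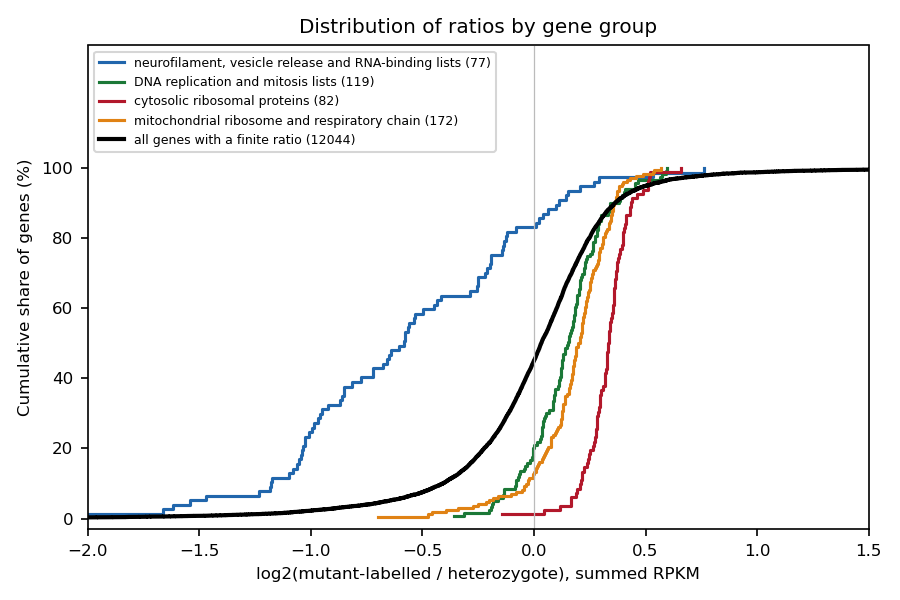
Cumulative share of genes, in percent, against the log2 ratio of mutant-labelled to heterozygote, for 4 joined groups of lists and for all 12044 genes with a finite ratio (black). The curve of neuronal genes (77 genes) lies to the left of the black curve over most of its range, and the 82 cytosolic ribosomal genes rise steeply around their median of 0.33.

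The pathways described here had at most 1 call each. Of all genes, 1.1% were called lower and 0.248% higher. The Notch pathway, through which new neurons hold back their neighbours, had no call among 32 genes, 21 were lower by summed level and the median was -0.09. Its neurogenic ligands were at 52.4 and 39.6 RPKM (Dll1), 6.24 and 3.28 RPKM (Dll3) and 12.1 and 8.49 RPKM (Dll4), and the target Hes5 at 64.1 and 43.1 RPKM. Mfng, a glycosyltransferase that tunes Notch, was at 42.9 and 29.2 RPKM, while Hes1, a further target, was at 48.6 and 49.8 RPKM and Rbpj, the pathway's DNA-binding protein, at 93.3 and 89.3 RPKM. In the Wnt pathway 1 of 29 genes was called, and 22 were higher by summed level (median 0.23). Fzd1, a Wnt receptor, rose from 7.26 to 11.5 RPKM (the authors' deposited table gives q = 0.0204). Fzd6 and Wnt5a were at 1.77 and 2.91 RPKM and at 1.83 and 2.90 RPKM, without passing the test. In the retinoic acid pathway Crabp2, which carries retinoic acid to its receptor, rose from 288 to 435 RPKM and was the only call of 15. Its relative Crabp1 was at 768 and 547 RPKM and the synthesis enzyme Aldh1a3 at 11.9 and 25.3 RPKM, neither called. The 12 Hedgehog pathway genes had no call and a median of 0.17, with the receptor Smo at 44.6 and 56.2 RPKM and the inhibitory receptor Ptch1 at 18.2 and 16.6 RPKM. The 22 genes of cholesterol synthesis had no call, 18 were lower by summed level and the median was -0.17.

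Markers of neighbouring tissues were measured in both groups, with the highest summed level for lens, and moved unevenly. Of 15 pigment epithelium markers 6 were measured, 5 of them higher in the mutant-labelled group, and their summed level was 20.3 and 23.8 RPKM. Lens markers summed to 115 and 120 RPKM over 13 of 26 genes, with Cryba1 at 28.9 and 13.3 RPKM against the rise of Gje1. Blood markers summed to 30.8 and 34.8 RPKM (5 of 16 genes), endothelium to 23.3 and 30.0 RPKM (2 of 12), periocular mesenchyme to 26.3 and 22.6 RPKM (5 of 16), macrophages to 11.2 and 4.83 RPKM (1 of 12) and surface ectoderm to 6.95 and 10.4 RPKM (2 of 10). No marker but Gje1 was called, and their part in the results was not tested. Of the defining markers Tyrp1, Mlana, Foxe3, Mip, Pecam1, Cdh5, Col1a1, Pdgfra, Csf1r and Krt8 were not analysed here. On the X chromosome 3 of 438 genes were called lower and 1 higher, against 1.1% and 0.248% of all genes. Without X and Y the calls were 130 lower and 29 higher.

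Genes near Neurog2 and neighbouring called genes were described by position. Within 10 Mb of Neurog2, 65 genes were measured, none was called lower and 1 was called higher, Hadh. Beside 1.1% and 0.248% of all genes, so few genes allow no reading of these counts. The 57 protein-coding genes of that window had a median of 0.24 and 43 of them were higher by summed level, against a median of 0.05 and 291 of 502 for the rest of the chromosome. Called genes that lie within 200 kb of each other were Cntn2 and Nfasc, Apc2 and Onecut3, Tubb2a and Tubb2b, Nefl and Nefm, and the 3 nicotinic genes, and in each case all members fell. Falls were also 133 of all 163 called genes, so a shared fall is the common case. The share of genes called lower was 1.1% over all chromosomes. It ran from 0.432% on chromosome 15 and 0.498% on chromosome 3 to 2.01% on chromosome 10 and 2.39% on chromosome 14.

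The share of genes called differed with the number of transcripts listed, with level and function not held fixed. Of genes listed with 1 transcript 1.84% were called lower (of 5490 genes), against 0.583% with 2, 0.649% with 3 and 0.231% with 4 or more. Of 31 lower genes with further transcripts, 29 had the same direction in the sum of those others, the exceptions being Gap43 and Napb. Of 8 higher genes with further transcripts, 5 had the opposite direction in the others, namely A430005L14Rik, Clmn, Rplp0, Tbl2 and Twf1. In Tbl2 the called transcript was at 0.276 and 6.38 RPKM and the other transcripts at 6.76 and 1.22 RPKM. In Twf1, an actin monomer binder, the called transcript was at 4.72 and 21.8 RPKM and the others at 42.4 and 26.2 RPKM. The gene Twf1 thus summed to 47.1 and 48.1 RPKM. The most abundant Twf1 transcript, at 25.1 and 18.5 RPKM, was not called, and the q of the called one was 0.0367 in the authors' deposited table.

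Many large ratios were not called: 217 protein-coding genes were at least 2-fold lower and 102 at least 2-fold higher by summed level, against 55 and 8 called genes of any type. The 6 largest uncalled ratios among genes with at least 20 RPKM were those of Gm22489, Mir7670, Snord91a, AF357399, Gm27937 and Snora17, from 800 to 28.6 RPKM for Gm22489 and from 41.3 to 351 RPKM for Gm27937. The 72 small nucleolar RNAs had a median of -0.48 and 5th and 95th percentiles of -2.82 and 0.85, wider than the -0.60 and 0.48 of protein-coding genes. Among protein-coding genes, named after their values were seen, Fos, an immediate early gene, was at 13.7 and 32.4 RPKM and Gcom1 at 9.36 and 37.6 RPKM. Fos did not share its ratio with Egr1, at 27.8 and 32.4 RPKM, and Btg2 was the only call among the 21 immediate early genes. At the lower limit of the description, Rbfox3, Slc2a13 and Dgkk lie just inside with 1.00009, 1.0009 and 1.00123 RPKM in the higher group, and D030040B21Rik, Gm10532 and Acot11 just outside with 0.99985, 0.9988 and 0.998 RPKM. A single called gene lies below the minimum, Elfn1, at 0.982 and 0.348 RPKM (the authors' deposited table gives q = 0.0424).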

How the data were processed

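RNA was measured in 3 heterozygote and 3 mutant-labelled samples, of 9 in the series. The RPKM values are the authors', 1 per group and assembled transcript, as deposited. The p-values and q-values are those the authors deposited with them. Bowtie2, Cufflinks, Cuffdiff and the build mm10 are named in the submitters' processing notes; no versions are given there. Pooling over samples leaves no replicate spread, no leave-one-out and no test of differences beyond the authors' own.

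With Python 3.11.15, pandas 2.3.3 and numpy 2.4.6, entries without a symbol or with a date in its place were dropped, RPKM was summed over the transcripts of a symbol, and genes reaching 1 RPKM in at least 1 group were kept. Ratios were computed without a pseudocount, and figures were drawn with matplotlib 3.10.9. The scripts were checked on simulated data. The genes and lists were chosen with earlier results of these data known, so a list's count is not independent evidence, and lists are described by counts and medians with no test. Named by rule were Neurog2, the 12 largest falls and rises and the 8 most abundant genes called in each direction, up to 4 called members per list (the 2 most abundant where none is called) and the 6 largest uncalled ratios at 20 RPKM or more. Other genes named, and the functional classes, were chosen after their values were seen. Pseudogene-rich, near-identical and overlapping genes can share reads, and whether reads were counted by strand is not given in the sources used here. Results for some genes are not reported here.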

Additional observations from a re-analysis of the deposited data

How the results depend on the processing

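No paired analysis was possible because the deposited table holds 1 value per group and none per sample, and leaving out each replicate could not be run for the same reason. The 30 called rises became 17 at a q threshold of 0.02 and the 133 falls became 107; at 0.1 the counts were 38 and 168. Counting only the most abundant transcript of a gene gave 128 falls and 28 rises, and at least 5 RPKM gave 93 and 27. The genes at least 2-fold lower, 271 in all, became 125 with a pseudocount of 1 and 93 with at least 5 RPKM. The genes at least 2-fold higher, 143 in all, became 69 with that pseudocount, 53 with at least 5 RPKM and 273 by the most abundant transcript. By the most abundant transcript 7 called genes did not pass the test: the falls Acsl6, Meg3, Onecut2, Srrm4 and Trp53i11 and the rises Flrt2 and Twf1. Of 61 list medians, 12 changed sign when measured from the median of genes at 100 RPKM or more (0.12), a choice added after seeing the data, 7 by the most abundant transcript, 3 of 60 with at least 5 RPKM and none with a pseudocount of 1. The cause of these shifts was not tested. Depth is unknown, so the precision of single values cannot be given.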

Other observations

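Transcripts without a gene symbol were measured as well and enter no count above. Of 116 such transcripts 83 were lower in the mutant-labelled group, the median log2 ratio was -0.37, and 1 was called, at 123.5 RPKM in heterozygote and 47.4 RPKM in mutant-labelled retina (-1.38). Long noncoding RNAs with a symbol, 363 genes, had 5 falls and no rise by the authors' test. These counts are near the shares of all genes, 1.1% and 0.248%. Their median was -0.14. The 76 microRNA genes had no call and a median of 0.23, with 21 of them listed at 0 in 1 group.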
